A study of Cavia porcellus with 34 samples.

Results

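Neurotrophins and their receptors were described in the paraventricular nucleus (PVN) of the hypothalamus, the nucleus whose neurons start the stress hormone response. The group holds 6 genes, chosen by name: the ligands BDNF and NTF3, the tyrosine kinase receptors NTRK2 (TrkB) and NTRK3 (TrkC), the common neurotrophin receptor NGFR (p75NTR) and SORT1 (sortilin), which binds neurotrophin precursors. Of these, 4 had a row among the 12114 genes of the F1 table, 5 among 12207 in F2 and 5 among 12068 in F3. NTF3 was listed only in F2 and F3, and NTRK2 is not analysed here.

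RNA was taken on postnatal day 40 from female guinea pigs of the paternal line. Their F0 founders had received, during pregnancy, repeated courses of the synthetic glucocorticoid betamethasone (sGC) or saline vehicle (Veh). F1 were their offspring, exposed in utero, and F2 and F3 descended from them through F1 males, and each arm held 5 animals in F1, 5 in F2 and 6 in F3. No genetic change is named for any group, and each generation was compared with its own Veh animals. The tissue was a punch of anteromedial hypothalamus that contained the PVN and may include neighbouring regions. In such bulk tissue fewer cells of a type and less RNA per cell cannot be told apart.

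Neurotrophins are secreted as precursors that are cut to mature ligands. Mature BDNF acts mainly through NTRK2 and NTF3 mainly through NTRK3, which signal through the MAP kinase, PI3 kinase and phospholipase C gamma cascades to neuronal survival, growth and synaptic strength. NGFR binds all neurotrophins and, together with SORT1, their precursors, and can then signal towards growth cone collapse or cell death. In the PVN, BDNF is known as a regulator of CRH neurons and of energy balance. NTRK3 is also made as a form without the kinase domain, and a value per gene holds all forms together.

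The unit throughout is the normalized count, a gene's read count after the study's correction for unwanted variation, rounded to a whole number. The values of an animal summed to 15.6 to 21.9 M (mega) in F1, 15.6 to 19.4 M in F2 and 18.7 to 19.0 M in F3. Each generation was tested by itself with limma on log2(value + 1) at the deposited scale, with Benjamini-Hochberg adjustment over all genes tested, and a gene was called at an adjusted p under 0.05. By this rule 0.657% of 11874 genes were called for F1, 0% of 11965 in F2 and 0.0506% of 11866 in F3. The F1 totals differed between animals, and with median-of-ratios size factors, which bring the animals to a common scale, 17.3% of genes were called in F1, 0% in F2 and 0.0421% in F3. Over all genes tested, the median log2 fold change was 0.07 in F1, -0.08 in F2 and -0.0016 in F3 at the deposited scale, and 0.0033, -0.0020 and -0.00021 with size factors. All 7 PVN neuroendocrine markers (AVP, OXT, CRH, TRH, SST, SIM1, OTP) were listed in each generation. Their summed normalized counts ranged from 22595 to 217016 over the F1 animals, from 61090 to 175321 in F2 and from 16516 to 55734 in F3.

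Of the 4 members tested in each generation, 0 were called in F1, F2 or F3 at the deposited scale. At an unadjusted p under 0.05, NTRK3 was higher in sGC in F1, NGFR and SORT1 were lower in F2, and none reached it in F3. Of all genes tested, 13.6% in F1, 11.7% in F2 and 13.1% in F3 reached that unadjusted threshold. With size factors 1 member, NTRK3 in F1, was called. The plot of values by animal shows that Veh and sGC animals overlapped for every member in every generation.

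**Figure D1:**
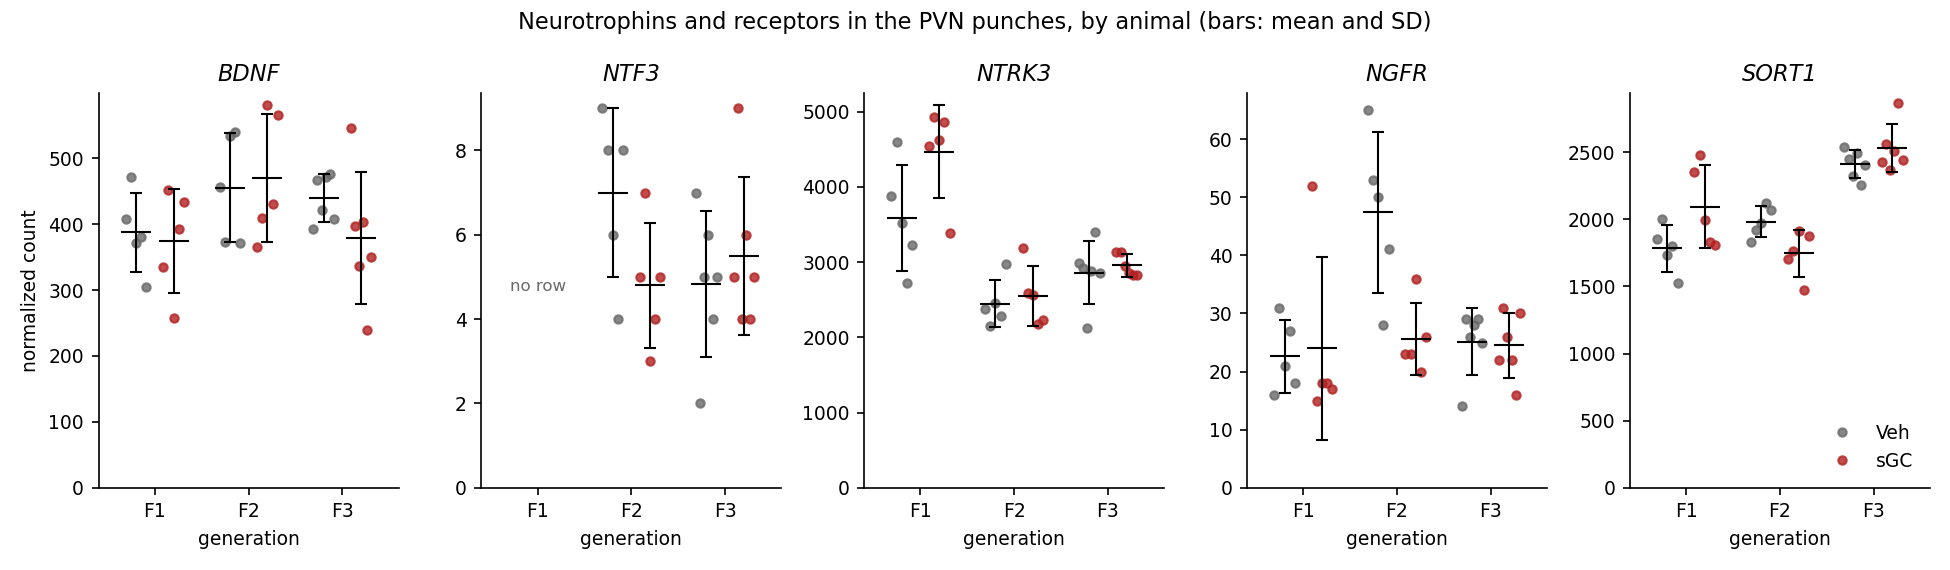
Normalized counts (vertical axis, from 0, with a scale of its own for each gene) by generation for each Veh animal (grey) and sGC animal (red), with the group mean and SD as black bars. Heights are not comparable between genes or generations. NGFR in F2 averaged 47.4 in Veh and 25.6 in sGC, and 1 F1 sGC animal lay at 52.

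BDNF, the ligand of NTRK2, showed no difference beyond the spread between animals in F1 or F2. In F1, the Veh animals had 408, 471, 372, 381 and 305 normalized counts of BDNF. The F1 sGC animals had 335, 451, 258, 392 and 434. The groups overlapped widely, with the lowest animal in sGC and the highest in Veh, and the log2 fold change, sGC against Veh, was -0.06 (standard error, SE, 0.16; 95% interval -0.39 to 0.26; limma, adjusted p = 0.904). For F2, the BDNF values were 457, 373, 534, 540 and 371 in Veh. They were 365, 409, 581, 430 and 565 in sGC. Both groups held low and high animals, and the log2 fold change was 0.04 (SE 0.15; 95% interval -0.29 to 0.37; limma, adjusted p = 0.922). Size factors took BDNF to -0.13 in F1 (limma, adjusted p = 0.600) and 0.12 in F2 (limma, adjusted p = 0.847).

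In F3, BDNF spread more widely in sGC than in Veh. The 6 Veh animals ranged from 393 to 476 normalized counts (median 444.5), with a mean of 439.5 ± 36.5 (SD, n = 6). The 6 sGC animals ranged from 240 to 545 (median 373.5), with a mean of 378.7 ± 100.4 (SD, n = 6). In 5 sGC animals BDNF was below the Veh mean, and in 3 of them below the lowest Veh animal, while 1 animal, at 545, lay above all of Veh. The log2 fold change was -0.25 (SE 0.14; 95% interval -0.55 to 0.05; limma, adjusted p = 0.477). The lowest animal, SGM_21, was 1 of 2 sGC animals sequenced in a second batch, from which no Veh library was analysed. Without it the log2 fold change was -0.13, and in the first batch alone it was -0.08. Without SGM10, the sGC animal at 545, it was -0.37 (limma, adjusted p = 0.187), and it was called in none of these fits. SLC17A6, the glutamate transporter gene whose pattern was most like that of BDNF, went along with it in F3 (Pearson r = 0.95). It was at 6846 in SGM10 and 2946 in SGM_21, against 3922 to 5624 in Veh. The PVN marker OTP was at 1212 and 2568 in these animals, against 1277 to 2574 in Veh. SIM1, another PVN marker, was at 748 in SGM10 and 1114 in SGM_21, against 782 to 1345 in Veh. The summed PVN neuroendocrine markers were at 29626 and 40821, both inside the Veh range of 16516 to 55734. The part of cell content in the BDNF values was not tested.

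NTF3, the ligand of NTRK3, lay close to the lower end of the tables, below the mean of 10 needed for the test across genes. In F2, the Veh animals had 9, 8, 6, 4 and 8 normalized counts of NTF3. The F2 sGC animals had 5, 7, 3, 4 and 5. The groups overlapped, and the mean log2(value + 1) was 0.46 lower in sGC (difference -0.46; exact permutation test, two-sided, p = 0.111). In F3, NTF3 ranged from 2 to 7 in Veh (median 5) and from 4 to 9 in sGC (median 5), a log2 difference of 0.18 (exact permutation test, two-sided, p = 0.541). At these low values no difference was detected in F2 or F3. The median was the same in both groups only in F3, and in F2 it was 8 in Veh and 5 in sGC.

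NTRK3, the high-affinity receptor for NTF3, was the member whose call changed with the scale of the samples. In F1, the Veh animals had 3881, 4592, 3514, 2718 and 3224 normalized counts of NTRK3. The F1 sGC animals had 4548, 4924, 4624, 4858 and 3390. Of these, 4 stood together near the top and 1, SGM20, lay apart among the Veh animals, so that the groups overlapped. The means were 3586 ± 705 (SD, n = 5) in Veh and 4469 ± 623 (SD, n = 5) in sGC. The log2 fold change was 0.33 (SE 0.14; 95% interval 0.04 to 0.61), and it did not pass the adjustment over all genes (limma, adjusted p = 0.293).

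The order of the F1 animals in NTRK3 went along with their totals, as the plot of NTRK3 against the animal's total shows. With size factors the Veh values narrowed to between 3149 and 3820 and the sGC values ranged from 3735 to 4626. NTRK3 then had a log2 fold change of 0.26 (SE 0.07), and it was called (limma, adjusted p = 0.0258). It was also called with animals scaled to equal totals (0.27, adjusted p = 0.0202) and with quantile normalization (0.26, adjusted p = 0.0253). With size factors and each animal left out in turn, NTRK3 was called in 7 of 10 fits, with log2 fold changes from 0.22 to 0.32 and adjusted p-values from 0.00961 to 0.0619, and it was not called without Veh animal SGM11 (0.27, adjusted p = 0.0619), sGC animal SGM4 (0.26, 0.0502) or sGC animal SGM16 (0.24, 0.0547). Under size factors 17.3% of all genes tested were called in F1. At the deposited scale marker genes also lay apart between the F1 groups: all 7 PVN neuroendocrine markers were lower in sGC (5 with an unadjusted p under 0.05, 0 called, median log2 fold change -0.94), with sums of 94313 to 217016 in Veh and 22595 to 191137 in sGC. All 4 endothelial markers were higher (3 with an unadjusted p under 0.05, 0 called, median 0.36), with sums of 3644 to 5679 in Veh and 4373 to 7976 in sGC. All 4 oligodendrocyte markers (1 with an unadjusted p under 0.05, median 0.34) and both mural markers tested (median 0.54) were also higher, with 0 called, 3 of 4 microglia markers were higher (2 with an unadjusted p under 0.05, 0 called, median 0.35), and the 5 neuron markers had a median of 0.02. With size factors, the scale at which NTRK3 was called, the neuron median was -0.04 and 2 neuron markers were called lower, STMN2 (-0.21, adjusted p = 0.0197) and SYP (-0.17, adjusted p = 0.0314), as was the PVN marker TRH (adjusted p = 0.0398), while the microglia marker CX3CR1 was called higher (0.25, adjusted p = 0.0496). The part of the cell content in the NTRK3 value was not tested.

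**Figure D2:**
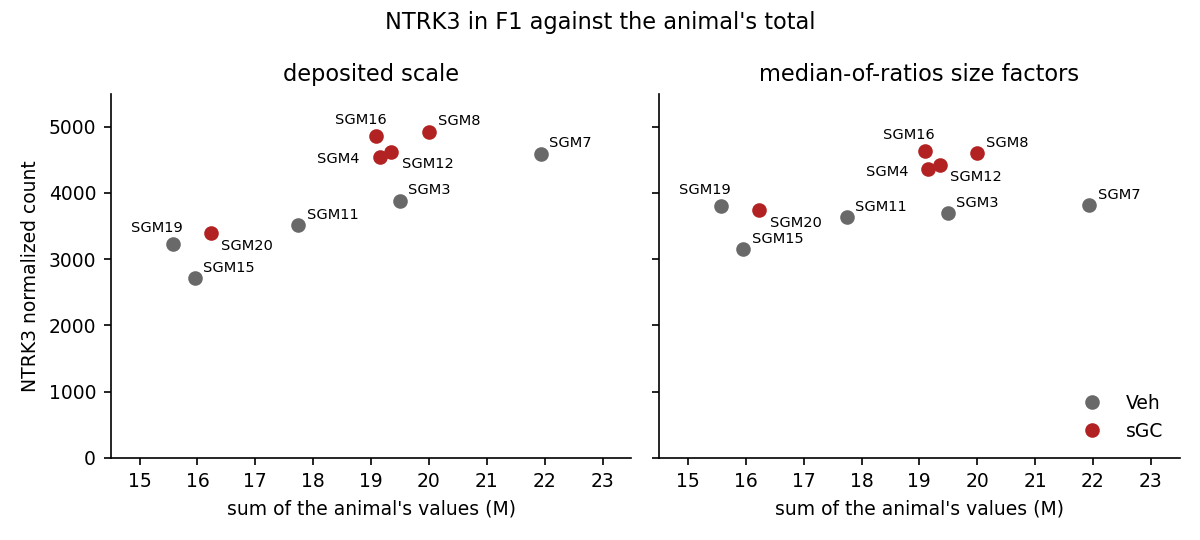
NTRK3 normalized counts (vertical axis) against the sum of all values of the same animal in M (mega; horizontal axis) for the 10 F1 animals, Veh in grey and sGC in red, at the deposited scale (left) and after median-of-ratios size factors (right). At the deposited scale the Veh animals span 2718 to 4592, and after size factors 3149 to 3820.

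In F2 and F3, NTRK3 did not differ beyond its spread. In F2, the NTRK3 values were 2381, 2150, 2451, 2280 and 2976 in Veh. They were 3186, 2588, 2565, 2177 and 2234 in sGC. The highest animal was an sGC animal and the lowest a Veh animal, and the log2 fold change was 0.05 (SE 0.11; 95% interval -0.18 to 0.29; limma, adjusted p = 0.859). Size factors took it to 0.13 (limma, adjusted p = 0.583). In F3, NTRK3 ranged from 2122 to 3399 in Veh (median 2902.5) and from 2828 to 3140 in sGC (median 2898). All sGC animals lay inside the Veh range, and the log2 fold change was 0.06 (SE 0.08; 95% interval -0.12 to 0.23; limma, adjusted p = 0.816).

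NGFR, the common receptor for mature and precursor neurotrophins, had the largest fold change of the tested members, in F2. The F2 Veh animals had 65, 53, 50, 28 and 41 normalized counts of NGFR. The F2 sGC animals had 23, 23, 36, 20 and 26. Every sGC animal was under the Veh mean and 4 were under the lowest Veh animal, and the groups overlapped only through Veh animal SGM28 at 28 and sGC animal SGM30 at 36. The means were 47.4 ± 13.8 (SD, n = 5) in Veh and 25.6 ± 6.19 (SD, n = 5) in sGC. The log2 fold change was -0.84 (SE 0.24; 95% interval -1.36 to -0.32). The unadjusted p was 0.00396, at rank 221 of 11965 genes, and NGFR was not called (limma, adjusted p = 0.215). With size factors the log2 fold change was -0.77 (limma, adjusted p = 0.187). Of 10 fits that each left out 1 animal, 1 passed, without Veh animal SGM28 (-1.01; limma, adjusted p = 0.0481), and the others did not (-0.97 to -0.71; adjusted p from 0.129 to 0.465).

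Marker genes of several cell types also lay apart between the F2 groups, with 0 called in any list, and the plot of NGFR against summed markers shows 4 of the lists. All 4 oligodendrocyte markers (MBP, MOG, MAG, MOBP) were lower in sGC, each with an unadjusted p under 0.05, with a median log2 fold change of -0.89. Their summed normalized counts ranged from 58885 to 117563 in Veh and from 29499 to 50808 in sGC, without overlap. SOX10, a transcription factor of the oligodendrocyte lineage listed with the precursor markers, was at -0.58 (limma, adjusted p = 0.0550). All 4 endothelial markers were lower too, 3 with an unadjusted p under 0.05 (sums 4240 to 6908 in Veh, 3833 to 4781 in sGC, overlapping), as were the 2 mural markers tested, 1 with an unadjusted p under 0.05 (sums 913 to 1612 and 876 to 1055, overlapping). LUM, the only fibroblast marker listed, ranged from 122 to 369 in Veh and from 110 to 173 in sGC, also with an unadjusted p under 0.05. All 4 microglia markers (median -0.22) and all 5 neuron markers (median -0.20) were lower, with 0 at an unadjusted p under 0.05. The 7 PVN neuroendocrine markers went the other way, all higher in sGC (4 with an unadjusted p under 0.05, median 0.32). Within Veh, SGM22, with the most NGFR, had the highest mural, endothelial and LUM values and SGM28, with the least NGFR, the lowest. SGM23, with the next most NGFR (53), had the next lowest of these values (1024, 4433 and 200) and the highest oligodendrocyte sum, 117563 against 72320 in SGM22. The part of these cells in the NGFR value was not tested.

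In F1, NGFR was high in a single sGC animal. The Veh animals had 16, 31, 21, 27 and 18 normalized counts of NGFR. The F1 sGC animals had 52, 15, 18, 18 and 17. The other 4 sGC animals lay at or just below the lower end of the Veh range and SGM4 lay above every other F1 animal. The log2 fold change was -0.04 (SE 0.33; 95% interval -0.72 to 0.64; limma, adjusted p = 0.974), and without SGM4 it was -0.35. Size factors, with all animals, gave -0.10 (limma, adjusted p = 0.862). SGM4 also had the highest sum of the 2 mural markers, 10596 against 2087 to 4662 in the other sGC animals, and the highest LUM, 748 against 181 to 247. Whether these cells bear on its NGFR value was not tested.

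In F3, NGFR ranged from 14 to 29 in Veh (median 27) and from 16 to 31 in sGC (median 24). The groups covered nearly the same range, and the log2 fold change was -0.03 (SE 0.20; 95% interval -0.45 to 0.39; limma, adjusted p = 0.969). In the first batch alone it was 0.03.

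**Figure D3:**
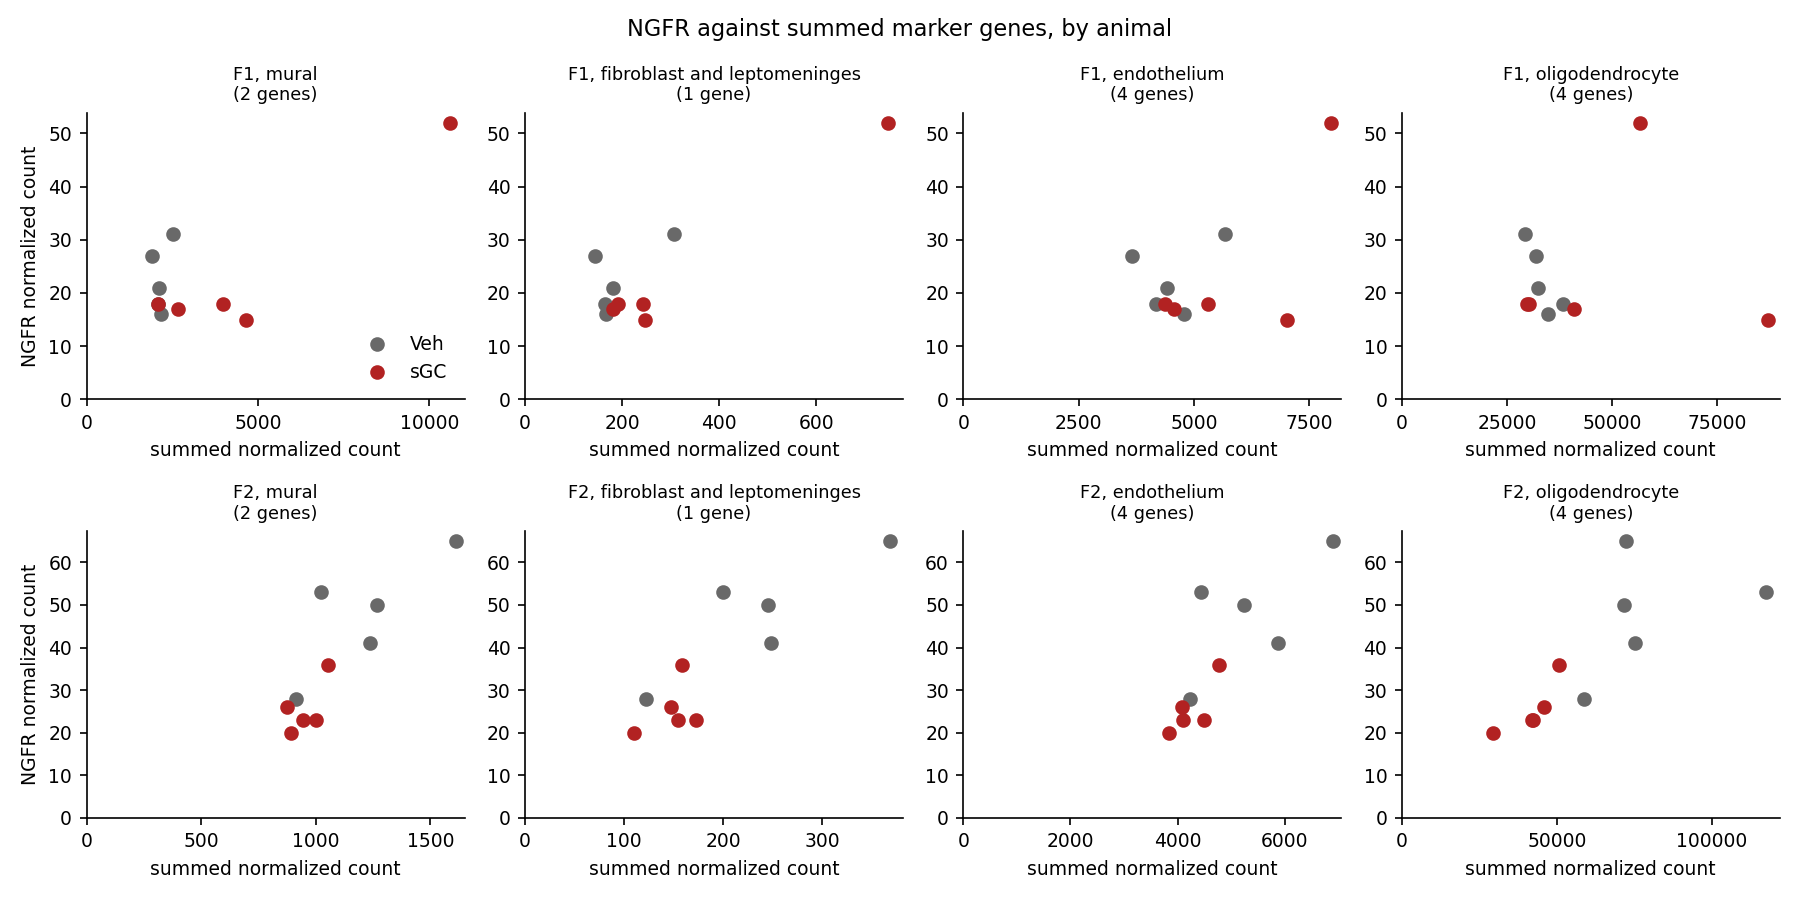
NGFR normalized counts (vertical axes) against the summed normalized counts of marker genes of 4 cell types (horizontal axes) for the F1 (top) and F2 (bottom) animals, Veh in grey and sGC in red. The number of marker genes tested is given above each panel; the mural genes are RGS5 and KCNJ8 in F1 and PDGFRB and KCNJ8 in F2. F1 sGC animal SGM4, with 52 NGFR, stands apart in the mural panel at 10596.

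SORT1, the sorting receptor that carries BDNF and forms a complex with NGFR, lay higher in sGC in F1 and lower in F2, and neither difference was called. In F1, the Veh animals had 1856, 2002, 1733, 1803 and 1527 normalized counts of SORT1. The F1 sGC animals had 2354, 2481, 1995, 1833 and 1812. All 5 sGC animals lay above the Veh mean, 2 of them above every Veh animal, and the ranges overlapped. On the log2 scale the fold change was 0.23 (SE 0.12; 95% interval -0.03 to 0.48; limma, adjusted p = 0.436), and 0.16 with size factors (adjusted p = 0.202). The animals above every Veh animal, SGM4 and SGM8, also had the highest oligodendrocyte marker sums, 56616 and 87066, against 29767 to 41096 in the other sGC animals and 29260 to 38378 in Veh. They had the highest endothelial sums (7976 and 7024) and mural sums (10596 and 4662) of the F1 animals too, and the lowest PVN neuroendocrine sums, 22595 and 33046 against 47034 to 191137 in the other sGC animals. The part of these markers in the SORT1 value was not tested.

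In F2, the SORT1 values were 1833, 1923, 1969, 2121 and 2071 in Veh. They were 1704, 1764, 1916, 1471 and 1877 in sGC. Every sGC animal was under the Veh mean and 3 were under the lowest Veh animal. For SORT1 the log2 fold change was -0.19 (SE 0.08; 95% interval -0.36 to -0.02; unadjusted p = 0.0348; limma, adjusted p = 0.396), and -0.11 with size factors (adjusted p = 0.579). Within F2 Veh, SGM28, with the most SORT1, had the lowest oligodendrocyte, mural and endothelial sums (58885, 913 and 4240). SGM22, with the least, had the highest mural and endothelial sums (1612 and 6908). Within F2 sGC it was the other way. SGM24, with the least SORT1, had the lowest oligodendrocyte and endothelial sums (29499 and 3833), and SGM30, with the most, the highest (50808 and 4781). The part of the F2 marker differences given for NGFR in the SORT1 value was not tested. In F3, SORT1 ranged from 2258 to 2535 in Veh (median 2427) and from 2369 to 2867 in sGC (median 2475.5). The sGC animals SGM_21 of the second batch, at 2867, and SGM18, at 2559, lay above every Veh animal and the others overlapped with Veh. The log2 fold change was 0.07 (SE 0.04; 95% interval -0.02 to 0.16; limma, adjusted p = 0.535). It was 0.032 without SGM_21 and 0.034 in the first batch alone.

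**Figure D4:**
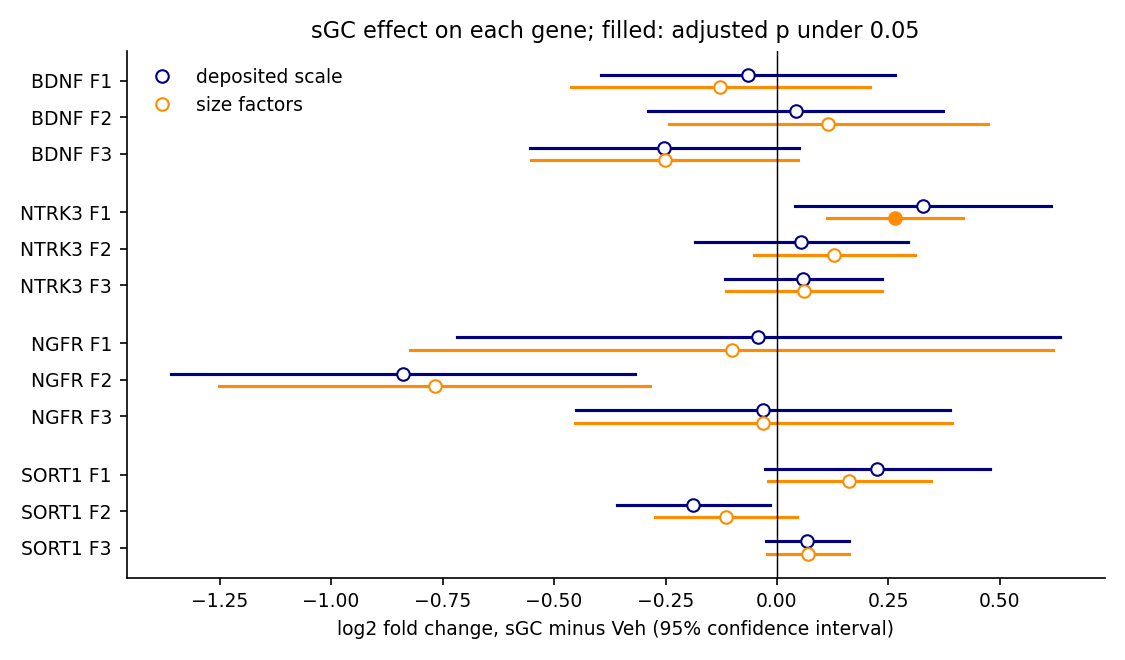
Log2 fold change of sGC against Veh (horizontal axis) with its 95% interval for the 4 members tested in each generation, at the deposited scale (blue) and with size factors (orange); filled symbols had an adjusted p under 0.05. NTRK3 in F1 with size factors, at 0.26, is the only filled symbol.

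Whether the effect of sGC differed between generations was tested with 1 limma model over the 32 animals and the 11429 genes tested in all 3 tables. The SORT1 effect was 0.41 higher in F1 than in F2 on the log2 scale (SE 0.12; limma, adjusted p = 0.0267). In that contrast 7.64% of genes were called. SORT1 was not called with size factors (difference 0.28, adjusted p = 0.0648) or when only the animals of F1 and F2 set the spread (adjusted p = 0.140, with 1.39% of genes called). Leaving out each animal gave differences from 0.35 to 0.46, and 6 of 20 fits lost the call, those without F1 animals SGM11, SGM19 (Veh), SGM4 and SGM8 (sGC) and F2 animals SGM29 (Veh) and SGM24 (sGC), at adjusted p-values from 0.0501 to 0.0730. On simulated data the model over all animals called too many unchanged genes in this contrast. The simulation drew each gene by itself, without a scale shared by the genes of an animal, so it differs from the F1 data in that.

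The other members were not called in any contrast between generations. The NGFR effect was 0.80 higher in F1 than in F2 (SE 0.38; limma, adjusted p = 0.197), and 0.49 without F1 sGC animal SGM4. It was 0.81 lower in F2 than in F3 (difference -0.81, SE 0.37; limma, adjusted p = 0.522). Between F1 and F3 no member was called (3.13% of genes were), and between F2 and F3 0.00875% of genes were called.

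The members varied more between animals of a group than most genes of a like level. After size factors, the within-group SD of BDNF on the log2 scale was larger than that of 84.6% of the 500 genes nearest to it in mean in F1, 92.2% in F2 and 98% in F3. For NTRK3 the shares were 76.4%, 76.6% and 98%. SORT1 exceeded 83.8%, 70% and 82.2% of its neighbours, and NGFR 72.8%, 54.6% and 74.2%. Over the 32 animals, with values centred within groups, the 6 pairwise Pearson correlations between members lay between -0.22 and 0.11.

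The genes whose pattern over the 32 animals was most like each member were found by the same centred values, among about 10541 genes, as a description that shares library and tissue punch. For BDNF they were SLC17A6, the vesicular glutamate transporter of hypothalamic excitatory neurons (Pearson r = 0.80), PRKG2 (0.76) and PLCD4 (0.75). For NTRK3 they were SYN3, a synapsin (0.75), KSR2, a scaffold of the MAP kinase cascade (0.74), and GALNT16 (0.74). SORT1 went most closely with OGFRL1 (0.89), PRICKLE1 (0.85) and RGS3, a regulator of G protein signalling (0.84). For NGFR the nearest were ANTXR1 (0.75), BMP6 (0.75) and TXNDC5 (0.75). Within F1, where SGM4 lay apart in NGFR, these were 0.83, 0.92 and 0.91. They were 0.66, 0.73 and 0.62 within F2 and 0.82, 0.42 and 0.71 within F3. The genes searched had a mean of at least 50 in every generation, and NGFR itself lay below that.

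Among 73 other genes of the neurotrophin pathway, 1 was called in F1 of 63 tested, 0 in F2 of 65 and 0 in F3 of 66. At an unadjusted p under 0.05 there were 13 (20.6%), 3 (4.62%) and 12 (18.2%), against 13.6%, 11.7% and 13.1% of all genes tested. The called gene was PCSK5, a proprotein convertase able to cut neurotrophin precursors. Its normalized counts were 365, 430, 337, 253 and 314 in F1 Veh and 449, 517, 665, 584 and 514 in F1 sGC. The groups did not overlap, as was so for 2.04% of all genes tested in F1, and the log2 fold change was 0.69 (SE 0.15; limma, adjusted p = 0.0314). PCSK5 was not called without Veh animal SGM11, SGM15 or SGM19 (adjusted p from 0.0800 to 0.113), nor when limma was run without trend. The median log2 fold change of the 73-gene list was 0.13 in F1 against 0.07 for all genes, -0.09 against -0.08 in F2 and -0.02 against -0.0016 in F3.

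With size factors, 19 of the 63 pathway genes tested in F1 were called (30.2%), 11 higher and 8 lower, beside 17.3% of all genes. Of the receptor kin SORL1 was called, at 0.17 (limma, adjusted p = 0.0357). Of the receptor partners RTN4R, the Nogo receptor that signals with NGFR (-0.62, adjusted p = 0.0458), and NGFRAP1 were lower. In cleavage and sorting PCSK5 was higher and SERPINI1, the neuronal inhibitor of tissue plasminogen activator, lower (-0.40, adjusted p = 0.00219). Of the adaptors and cascade 11 were called, 7 higher, among them the Trk adaptor SHC3 (0.42, adjusted p = 0.0162), PLCG1 (0.22, adjusted p = 0.0116) and SOS1 (0.22, adjusted p = 0.00436). The 4 lower were FRS3, another Trk adaptor (-0.30, adjusted p = 0.00179), MAP2K1 (-0.17, adjusted p = 0.0134), CRK (-0.13, adjusted p = 0.0214) and HRAS (-0.18, adjusted p = 0.0267). Of the regulators and responsive genes 3 were called, among them CREB1, which drives BDNF transcription (0.38, adjusted p = 0.00475), and DUSP6, a phosphatase of the MAP kinases (-0.23, adjusted p = 0.0362). At the deposited scale 18 of these 19 were not called.

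**Figure D5:**
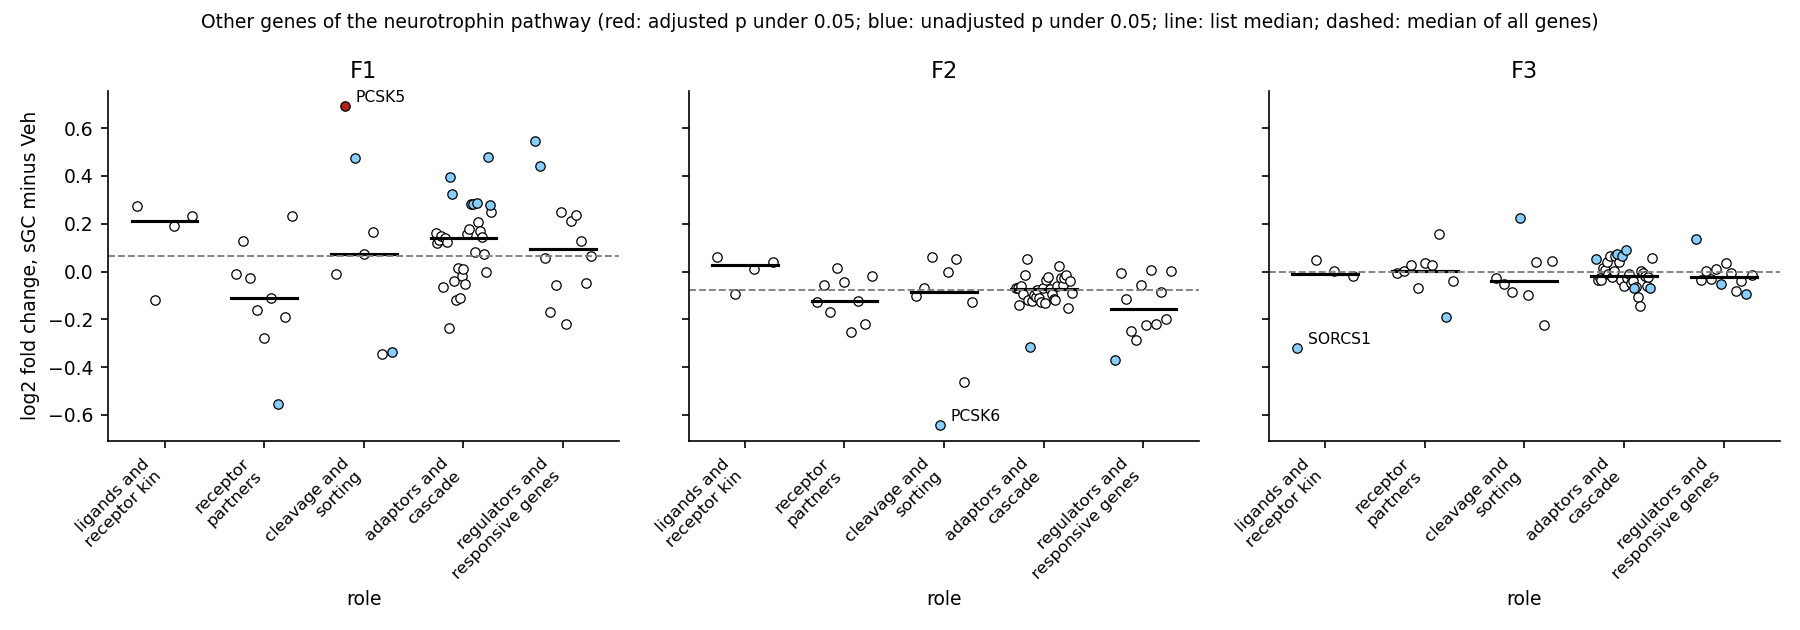
Log2 fold change of sGC against Veh at the deposited scale (vertical axis) for the tested genes of the 5 pathway lists (horizontal axis) in each generation, each point a gene, with the list median as a black line and the median of all genes tested dashed. Red marks an adjusted p under 0.05 and blue an unadjusted p under 0.05; PCSK5 in F1, at 0.69, is the only red point.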

How the data were processed

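The authors aligned the reads to the guinea pig cavPor3 genome with TopHat2, counted them on genes, corrected the F3 sequencing batches with ComBat, normalized by RUVSeq residuals and tested with edgeR. The values they deposited, 1 table per generation, are counts after that correction rounded to whole numbers. As the authors' values have no fixed range after normalization by residuals, they were handled as a score rather than as reads. The deposited columns of the authors' own comparisons (fold change, likelihood ratio, dispersion, average abundance, p-value and false discovery rate) were not used. Of 34 libraries, 2 re-sequenced Veh libraries were left out.

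Each table was fitted with limma 3.58.1 in R 4.3.3 (eBayes with trend) on log2(value + 1), with 1 as pseudocount, over genes whose mean reached 10, two-sided, with Benjamini-Hochberg adjustment at 0.05. A fold change on this scale understates the change of low genes. The p-values measure the spread between animals. Residual normalization had removed 1, 1 and 2 directions, counted as covariates in an alternative. Differences between generations were contrasts in 1 limma model. NTF3 fell under the filter and was tested by exact permutation.

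The members and the gene lists were chosen with earlier results of these data known. Named genes were the members, called pathway genes and the 3 genes most correlated with each member; pathway genes called only with size factors, and SORCS1 and PCSK6, were named after their values were seen. Alternatives were other scalings, pseudocounts and filters, no trend, batch, each animal left out and, added after seeing the data, a spread from the generations compared, the animal number in the column names as a replicate block and NTRK3 in F1 with both scaling and an animal left out. The fits were tested on simulated data. Since the values are not reads, no counting interval is given. Lengths, coordinates and sequences of the build were not used here, so levels are not compared between genes. Some genes of the lists set at the start are not reported here and were left out of the list counts and sums.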

Additional observations from a re-analysis of the deposited data

Results flagged for a closer look

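Among 28 groups of 5 or 6 animals examined for members, 4 held an animal far from the rest, where chance gives about 1 in 20, or 1.4. That share holds for normally distributed values, and the NGFR and NTF3 groups held small whole numbers. NTRK3 in F1 sGC animal SGM20 was 3390 normalized counts, with the other sGC animals between 4548 and 4924. NTRK3 in F3 Veh animal SGM17 was 2122, with the others between 2849 and 3399, and it only just met the rule. NGFR in F1 sGC animal SGM4 was 52, with the others between 15 and 18. NGFR in F3 Veh animal SGM13 was 14, with the others between 25 and 29.

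The effect of sGC on SORT1 was 0.41 higher in F1 than in F2 on the log2 scale and called in the model over all animals (limma, adjusted p = 0.0267). On data simulated gene by gene, without a scale shared within an animal, that model called too many unchanged genes in this contrast. SORT1 was not called when only those generations set the spread (adjusted p = 0.140) or with size factors (0.28, adjusted p = 0.0648). The call was also lost in 6 of 20 fits that left out an animal. All 5 sGC animals lay above the Veh mean in F1 and below it in F2, a difference of 0.42 between the mean deviations, which is the same pattern and was not tested apart. With size factors 4 of 5 did so in each generation, with F1 animal SGM16 at 1745 against a Veh mean of 1822 and F2 animal SGM25 at 2008 against 1937. Several marker lists, with 0 called, also lay on opposite sides in F1 and F2. Their median log2 fold changes were 0.34 and -0.89 for oligodendrocytes, 0.36 and -0.36 for endothelium and 0.35 and -0.22 for microglia. PVN neuroendocrine markers went the other way, at -0.94 and 0.32. The mural medians were 0.54 and -0.30, from different genes. These were RGS5 and KCNJ8 in F1 and PDGFRB and KCNJ8 in F2. KCNJ8, the mural gene in both, was at 0.14 in F1 and -0.27 in F2. The part of these marker lists in the SORT1 values was not tested.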

How the results depend on the processing

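With size factors, equal totals or quantile normalization, 2058, 1943 and 2084 genes were called in F1, of them 19, 19 and 18 pathway genes, and NTRK3 in F1 was called at 0.26, 0.27 and 0.26. Adding the removed directions as covariates to the size factors gave 1345 genes, 15 pathway genes and NTRK3 at 0.26, also called, and eBayes without trend gave 30 genes and 0 pathway genes in F1. In F2, quantile normalization called 42 genes and 1 pathway gene, and a mean of at least 50 called 17 genes. In F3, the removed directions as covariates left 1 gene without and 1 with size factors, no trend gave 10, the first batch alone 2 and batch as a covariate 3, and NGFR turned to 0.028 in both batch settings. For differences between generations, size factors gave 1635 (F1 and F2), 2013 (F1 and F3) and 18 (F2 and F3) called genes. They took SORT1 between F1 and F2 to 0.28, not called, and turned NTRK3 between F2 and F3 to 0.068. A pseudocount of 5 turned NGFR between F1 and F3 to 0.0038. With the spread of the generations compared, 159 genes were called between F1 and F2 and 170 between F2 and F3, and SORT1, at 0.41, was not called. The causes were not tested.

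Leaving out each animal gave 15 (without Veh SGM15) to 474 (without Veh SGM7) called genes in F1, 0 to 114 (without Veh SGM28) in F2 and 1 to 15 (without sGC SGM18) in F3, and 0 (without Veh SGM11, SGM15 or SGM19) to 3 (without Veh SGM7) pathway genes in F1 and 0 to 1 (without Veh SGM22 or SGM28) in F2. Member fold changes ranged from -0.15 to 0.062 for BDNF and -0.35 to 0.078 for NGFR in F1, from -0.041 to 0.13 for BDNF, -0.029 to 0.13 for NTRK3 and -1.01 to -0.71 for NGFR in F2, and from -0.024 to 0.11 for NTRK3 and -0.18 to 0.079 for NGFR in F3. NTRK3 in F1 with size factors ranged from 0.22 to 0.32. Differences between generations called 439 to 2447 genes (F1 and F2), 193 to 1281 (F1 and F3) and 0 to 5 (F2 and F3). For F1 minus F2 they ranged from -0.19 to 0.020 for BDNF, 0.35 to 0.46 for SORT1 and 0.49 to 0.97 for NGFR, for F1 minus F3 from -0.32 to 0.14 for NGFR, and for F2 minus F3 from -0.088 to 0.079 for NTRK3. Except as given, member fold changes kept direction and call. That was so in 143 of 149 fits under the settings of the first paragraph and the others tried. It was so in 109 of 128 fits that left out an animal. For member differences between generations the counts were 41 of 45 and 233 of 256. The number of animals and the low values of NGFR and NTF3 limit the precision. The sample labels share no replicate numbers between arms. The deposited columns number both arms alike, with no statement that a number ties animals together, and same-numbered animals correlated above 0.1 in 1 of 5 pairs in F1, 1 of 5 in F2 and 2 of 6 in F3, with 2 of 10, 2 of 10 and 1 of 12 animals closest to their own number. With that number as a replicate block, added after seeing the data, 146 genes and 0 pathway genes were called in F1, 6 genes in F2 and 0 in F3, and with block and size factors 771 genes and 8 pathway genes in F1 and 0 genes in F2 and F3. NTRK3 in F1 was then 0.26 and not called (adjusted p = 0.0816).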

Other observations

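2 genes of the pathway lists, named here after their values were seen, missed the threshold narrowly and did not overlap between the groups, the pattern they were picked for. Of all genes tested, 2.4% in F2 and 1.21% in F3 did not overlap either. SORCS1, a receptor of the sortilin family, ranged from 896 to 1105 normalized counts in F3 Veh and from 697 to 843 in F3 sGC. Its log2 fold change was -0.32 (SE 0.06; limma, adjusted p = 0.0764), against 0.27 in F1 (adjusted p = 0.489) and 0.06 in F2 (adjusted p = 0.848). The lowest F3 sGC animal, SGM_21 at 697, came from the second batch, as did SGM_22 at 810. No Veh library of that batch was analysed. PCSK6, a proprotein convertase, had 386, 337, 367, 342 and 477 normalized counts in F2 Veh and 275, 227, 261, 199 and 257 in F2 sGC. Its log2 fold change was -0.64 (SE 0.12; limma, adjusted p = 0.0622), against 0.48 in F1 (adjusted p = 0.213) and 0.22 in F3 (adjusted p = 0.253). The oligodendrocyte markers were also lower in the F2 sGC animals, and their part in the PCSK6 value was not tested. Whether these effects differ between generations was not tested for these genes.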
